A study of Mus musculus with 12 samples.

Results

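Of 12 tongue libraries, 3 carried very large amounts of the transcript of Lipf, a lipase that lingual serous glands secrete, and 9 carried almost none. Libraries with Lipf above 1000 FPKM (a read count divided by exon length and by library depth) were taken as gland-bearing: vehicle libraries 3 and 5 and GA library 2. The other 9, 4 vehicle and 5 GA libraries, had Lipf below 1 FPKM and were taken as gland-free. The lowest deposited Lipf value inside the limit was 8765 FPKM (vehicle library 5) and the highest outside it was 0.508 FPKM (GA library 1). Since the groups were set by a value measured in the same libraries, the contrast between them is given as levels and differences without a p-value, and Lipf is left out of every count.

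All mice were C57BL/6, bought at 5 weeks of age, and all received the carcinogen 4NQO (4-nitroquinoline 1-oxide) in their drinking water (100 µg/mL) over 16 weeks. From week 4 of 4NQO, the mice of the 6 GA libraries were gavaged with gallic acid at 100 mg/kg, 5 times per week, and those of the 6 vehicle libraries with the carrier alone (methyl cellulose and Tween-20) on the same schedule. The labels describe the material as tongue, with tumor and tumor-associated cells, and do not say which part of the tongue was taken. Replicate numbers are given without animal identifiers, so the spread between libraries may in part be technical. The epithelial keratin gene Krt13 was abundant in all 12 libraries, from 5579 to 22196 scaled FPKM.

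Serous glands of the posterior tongue, the von Ebner glands, empty into the clefts around the circumvallate and foliate taste papillae and release lipase, amylase and antimicrobial proteins from zymogen granules. Mucous glands lie beside them and release gel-forming mucins. Both kinds have acini of simple epithelial cells wrapped by myoepithelial cells, ducts that modify the fluid, and IgA-secreting plasma cells in their stroma. In bulk tissue, fewer cells of a type and less RNA per cell cannot be told apart.

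Both treatments held gland-bearing libraries, 2 of 6 with vehicle and 1 of 6 with GA. Fisher's exact test (two-sided) gave p = 1, but with 3 gland-bearing libraries no split can give less than 0.182, so it could not have shown an imbalance. Totals ran from 20632524 to 23929929 reads in the gland-bearing libraries and from 18040309 to 25192670 reads in the gland-free ones. Y-linked reads were present in 1 of the 3 gland-bearing libraries (vehicle library 3) and 4 of the 9 gland-free ones. By treatment they were uneven, being present in vehicle libraries 1, 2, 3 and 4 and, with GA, in library 1 only. Rank correlations over genes (Spearman's rho, a description across genes) lay between 0.935 and 0.967 within the gland-bearing libraries, between 0.905 and 0.973 within the gland-free ones, and between 0.889 and 0.945 across them. Gland state took up 25.9% of the squared distance between libraries, and treatment took up 6.89%. Any split of the libraries takes up some share, and no such baseline was computed. The gland groups were also set from these same libraries, so nothing is read from the 2 shares.

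The 4 sequences that follow lie upstream of gland genes with a high mean level with gland and transcripts close to absent without it. The choice was limited to genes with RefSeq and GENCODE starts at most 10 bases apart, so it is not a ranking by level. Bpifb2 was uneven, with 268-fold between the highest and the lowest gland-bearing library. The sequences are the 250 bases before the RefSeq start on GRCm38.p6, written 5′ to 3′ on the strand of the gene. Capitals mark a TATA box (TATAAA). Sbpl and 2310057J18Rik are on the minus strand, at chr17:23955274-23955523 and chr10:28986307-28986556, and Bpifb1 and Bpifb2 on the plus strand, at chr2:154190568-154190817 and chr2:153874795-153875044.
Sbpl: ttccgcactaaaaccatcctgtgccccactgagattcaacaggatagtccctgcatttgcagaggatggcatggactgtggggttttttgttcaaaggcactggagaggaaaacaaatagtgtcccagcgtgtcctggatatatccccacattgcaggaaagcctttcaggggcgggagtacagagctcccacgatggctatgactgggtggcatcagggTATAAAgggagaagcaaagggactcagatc
Bpifb1: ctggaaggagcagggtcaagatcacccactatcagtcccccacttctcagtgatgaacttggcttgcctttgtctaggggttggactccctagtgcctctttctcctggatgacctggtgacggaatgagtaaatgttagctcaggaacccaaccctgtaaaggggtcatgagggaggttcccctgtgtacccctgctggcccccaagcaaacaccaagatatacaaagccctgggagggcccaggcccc
2310057J18Rik: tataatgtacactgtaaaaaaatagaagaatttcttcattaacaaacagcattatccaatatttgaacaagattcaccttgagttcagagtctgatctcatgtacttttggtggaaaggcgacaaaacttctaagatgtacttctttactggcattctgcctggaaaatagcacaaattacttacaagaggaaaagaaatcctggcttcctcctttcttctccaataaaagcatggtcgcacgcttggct
Bpifb2: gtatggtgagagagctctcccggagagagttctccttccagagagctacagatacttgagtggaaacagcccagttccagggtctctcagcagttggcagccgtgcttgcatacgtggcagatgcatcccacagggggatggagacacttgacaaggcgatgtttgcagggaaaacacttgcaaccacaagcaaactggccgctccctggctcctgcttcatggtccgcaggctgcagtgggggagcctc
Only the Sbpl window of these 4 held one of the motifs searched, the TATA box beginning 30 bases before the start. The windows were searched on both strands for CATATG (the E-box that the acinar factor MIST1 binds), TGTTTAC (a forkhead motif), TGACGTG (an XBP1 motif) and TATAAA. Among genes higher in the gland-bearing libraries, as defined further on, 310 had a window, and 2.58% held CATATG, 2.26% TGTTTAC, 2.26% TGACGTG and 11.3% TATAAA. Over the 11799 tested genes with a window the shares were 1.58%, 2.22%, 2.23% and 7.67%, and over all 32851 RefSeq windows they were 3.46%, 3.17%, 1.65% and 12.4%. For CATATG and TATAAA the share of the higher genes thus lay above the first background and below the second. Of the 30 lower genes with a window, 3.33% held CATATG, 26.7% TATAAA and none the other motifs. A match is a run of letters and not a measured site.

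Serous products were abundant in the gland-bearing libraries. Their listed genes, Lipf left out, took 3.68% of all reads in vehicle library 3, 1.75% in vehicle library 5 and 4.23% in GA library 2, against 0.00256% to 0.00771% in the gland-free libraries. Sbpl (spermine-binding protein-like, chromosome 17, 23953084 to 23955274) stood at 8692 scaled FPKM in vehicle library 3, 3982 in vehicle library 5 and 10135 in GA library 2, against 0 to 0.287 in the 9 gland-free libraries (median 0). The gland-free libraries held 9 Sbpl reads in all. Bpifb1, a lipid-binding defence protein of airway and gland secretions, reached 5493, 1863 and 5521 scaled FPKM in the same order, against 0.0386 to 0.229 (median 0.105). In both genes vehicle library 5 was the lowest of the 3 and still far above every gland-free library.

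Amy1, the salivary amylase (chromosome 3, 113555710 to 113606699), behaved as a gene that the other libraries also hold at a low level. It stood at 2437, 712 and 2825 scaled FPKM in vehicle library 3, vehicle library 5 and GA library 2, and at 0.937 to 3.51 (median 2.67) without gland. The difference, adjusted for treatment, was 9.72 on the log2(scaled FPKM + 0.1) scale, with a standard error (SE) of 0.51. Amy1 shares 32.7% of its exon bases with other annotated genes and has close amylase copies, so its reads are uncertain. The transcript 2310057J18Rik, listed under its clone name, reached 2588, 914 and 2938 scaled FPKM against 0 to 0.151 (median 0).

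Antimicrobial and mucosal defence proteins followed at lower levels. Bpifa2, the parotid secretory protein, stood at 839, 181 and 841 scaled FPKM against 0 to 0.434. Dmbt1, the bacteria-binding salivary agglutinin, stood at 247, 156 and 269 against 0 to 0.0389. Ltf, the iron-binding lactoferrin (chromosome 9, 111019271 to 111042767), stood at 83.4, 70.3 and 122 against 0 to 0.31, and its difference was 8.98 (SE 0.43). Dmbt1 and Ltf differed by 1.73-fold and 1.74-fold between the highest and lowest gland-bearing library, while Bpifa2 differed by 4.66-fold.

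Wfdc18, a WAP-domain protein, was at 494, 427 and 843 scaled FPKM against 0.444 to 12.1, and Pglyrp1, a peptidoglycan-binding antibacterial protein, was at 23.7, 27.9 and 26.2 against 0.178 to 2.15. Car6, the secreted salivary carbonic anhydrase, was at 49.2, 5.89 and 27.1 against 0 to 0.0715, and Chia1, the acidic chitinase, at 119, 11.4 and 82.2 against 0 to 0.182. Car6 and Chia1 were uneven, with vehicle library 3 highest and vehicle library 5 lowest in both. The chemokine Ccl28, which draws IgA-secreting cells to mucosa, was at 4.48, 3.31 and 4.75 against 0.0192 to 0.179.

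Some gland transcripts had no reads at all in the 9 gland-free libraries. Against a floor of 3 reads over those libraries together, Gm5154 was at least 6983-fold higher in the gland-bearing libraries, Gm4736 at least 3135-fold, Sval2 at least 1822-fold and Dcpp1, a demilune cell and parotid protein, at least 1641-fold. Gm5154 and Gm4736 are annotated as unprocessed pseudogenes on chromosome 6, and whether their reads belong to close copies was not tested. Dcpp1 was close to even among the 3 gland-bearing libraries, at 40.8, 45.3 and 40.4 scaled FPKM. The proline-rich protein genes Prb1a, Prb1b and Prb1c were listed at 0 without gland and reached 115 to 450.1, 26.3 to 141 and 32.4 to 145 scaled FPKM with it. Such intervals and floors cover counting error only, and reads of the Prb1, Dcpp and Sbp families may be split among close copies.

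**Figure D1:**
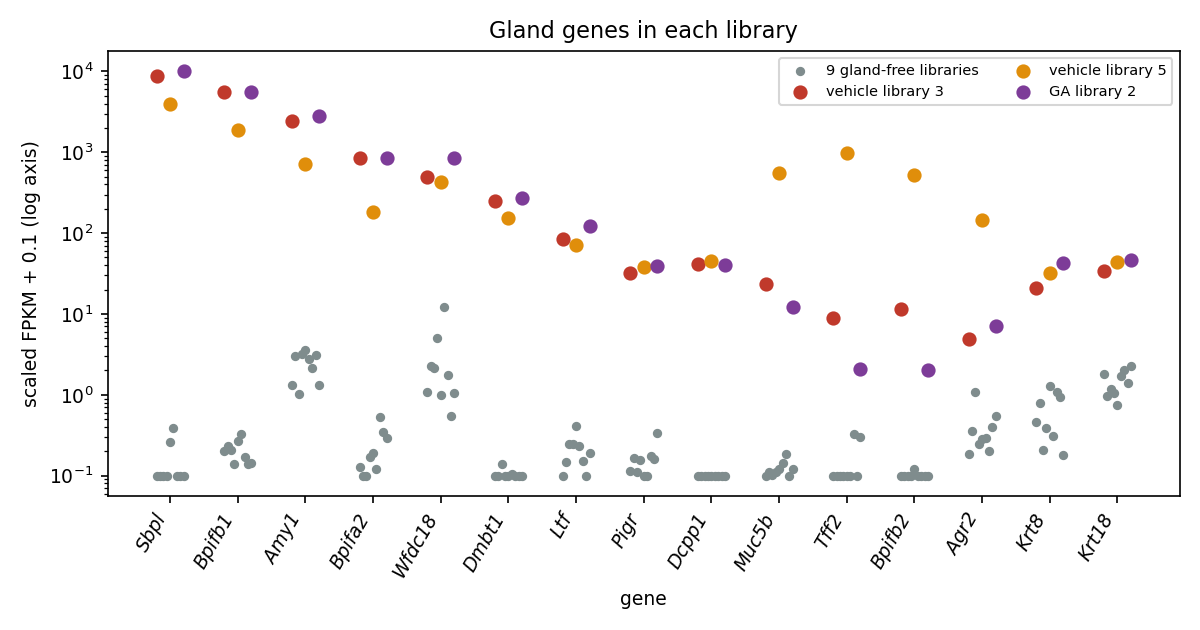
Scaled FPKM + 0.1 (log axis) of 15 gland genes in each library. Grey points are the 9 gland-free libraries and coloured points the 3 gland-bearing ones, which lie above every grey point in all 15 genes, with Sbpl highest and with Muc5b, Tff2, Bpifb2 and Agr2 far higher in vehicle library 5.

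Across 16851 named genes averaging 0.1 FPKM or more, a gene was called apart when the treatment-adjusted difference was at least 1 on the log2 scale and no gland-bearing library overlapped a gland-free one. By this description 431 genes (2.56%) were higher and 49 genes (0.291%) were lower in the gland-bearing libraries. Without the size limit, 580 genes (3.44%) were higher and 521 (3.09%) lower with no overlap. Nothing is read from these shares, because the same libraries set the groups. The 2.56% and 0.291% are the background for every list count that follows. The median difference over all genes was -0.03. Of the 431, 196 differed by at least 2, 57 by at least 4 and 18 by at least 8 log2 units, while 5 of the 49 lower genes differed by at least 2. In the gland-free libraries 114 of the 431 had a mean below 0.1 scaled FPKM and 121 had a mean of at least 1.

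**Figure D2:**
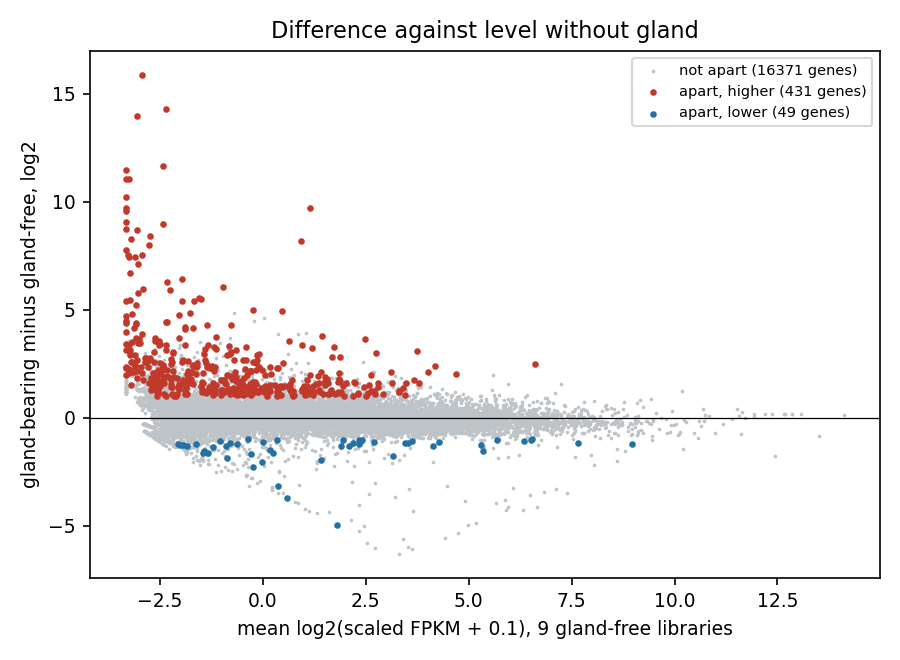
Gland-bearing minus gland-free difference (log2) of each gene against its mean level in the 9 gland-free libraries (log2 of scaled FPKM + 0.1), Lipf left out. The 431 genes apart and higher spread upward mainly at low gland-free levels, and all but 5 of the 49 apart and lower lie within 2 units of 0, while grey points further down are genes whose libraries overlapped.

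The list of serous secretory products had 40 genes, of which 36 were in the files and 22 beside Lipf passed the level filter. Of the 22, 17 were apart and higher, none was lower, and the median difference was 6.70, also with genes without gland-free reads at their bound. Low genes could pass the filter only through the libraries that carry them, so this count describes the list and supports nothing further. The 5 not apart were Lpo, Bpifa1, Bpifb6, Lyz1 and Crisp1. Lactoperoxidase (Lpo) stood at 6.09, 1.63 and 6.43 scaled FPKM against 0.171 to 4.75, so vehicle library 5 lay within the gland-free range.

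Several genes of the secretory lists were at or near 0 in the gland-bearing libraries. The lipocalins Lcn3, Lcn4 and Lcn11 were listed at 0 in all 3 gland-bearing libraries, as was Obp2b, and Obp2a did not exceed 0.0617 scaled FPKM there. Of the major salivary gland list, 3 of 6 tested genes were apart and higher, namely Bpifa2, Dcpp1 and Smgc, and the first 2 of these are also in the serous list. The kidney and salivary enzyme gene Ren1 was listed at 0 in the gland-bearing libraries, and the kallikrein Klk1 stood at 0.634 to 0.898 against 0.039 to 0.688. Of the stomach list, which shares lipase and mucin biology with the tongue, 1 of 3 tested genes was apart, Muc5ac, at 0.18 to 1.09 scaled FPKM, while the stomach genes Gkn2 and Cblif were listed at 0 in the gland-bearing libraries.

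Mucous products separated vehicle library 5 from the other gland-bearing libraries. Muc5b, the main gel-forming salivary mucin (chromosome 7, 141839070 to 141873084), stood at 23.1 scaled FPKM in vehicle library 3, 547 in vehicle library 5 and 12.1 in GA library 2, against 0 to 0.0865 without gland. Tff2, a trefoil peptide packed with mucin, stood at 8.93, 987 and 1.99, against 0 to 0.23. Bpifb2 stood at 11.3, 524 and 1.95, and the gland-free libraries held a single Bpifb2 read. All 3 libraries were above the gland-free range in these genes, yet vehicle library 5 exceeded the mean of the other two by 31.1-fold for Muc5b, 181-fold for Tff2 and 79.2-fold for Bpifb2.

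The same library led for Agr2, a disulfide isomerase needed for mucin folding, at 145 scaled FPKM against 4.79 and 7.05, and for Gp2, a zymogen granule membrane glycoprotein, at 419.9 against 16 and 27.4. It also led for Smgc, a submandibular gland protein, at 13.9 against 0.252 and 0.127. Serous genes were mixed. Of the 17 apart, 12 were lower in vehicle library 5 than the mean of the other two and 5 were higher (Bpifb2, Dcpp2, Dcpp3, Wfdc2 and Dcpp1), while all 6 mucous genes apart were higher there. In vehicle library 5, Sbpl was at 0.423 of the mean of the other two, Amy1 at 0.271, Bpifa2 at 0.215, Car6 at 0.154 and Chia1 at 0.114. Pigr and Dcpp1 were nearly level, at 1.06 and 1.12. Over the 431 genes, vehicle library 5 was the highest library in 196, GA library 2 in 139 and vehicle library 3 in 96. With 1 library of this kind, the spread among the 3 has no replicate check.

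Of the list of mucous products, 12 of 19 genes were tested and 6 were apart and higher (Muc5b, Tff2, Agr2, Bpifb2, Muc5ac and Gcnt3), with a median difference of 1.58. The mean log2 level of that list, its score, was 0.78 in vehicle library 3, 3.72 in vehicle library 5 and 0.44 in GA library 2, against -1.70 to -1.32 in the gland-free libraries. The score of the serous list was 4.91, 4.85 and 4.80, against -1.75 to -1.33. The near equality of the serous scores includes Bpifb2, which both lists hold.

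**Figure D3:**
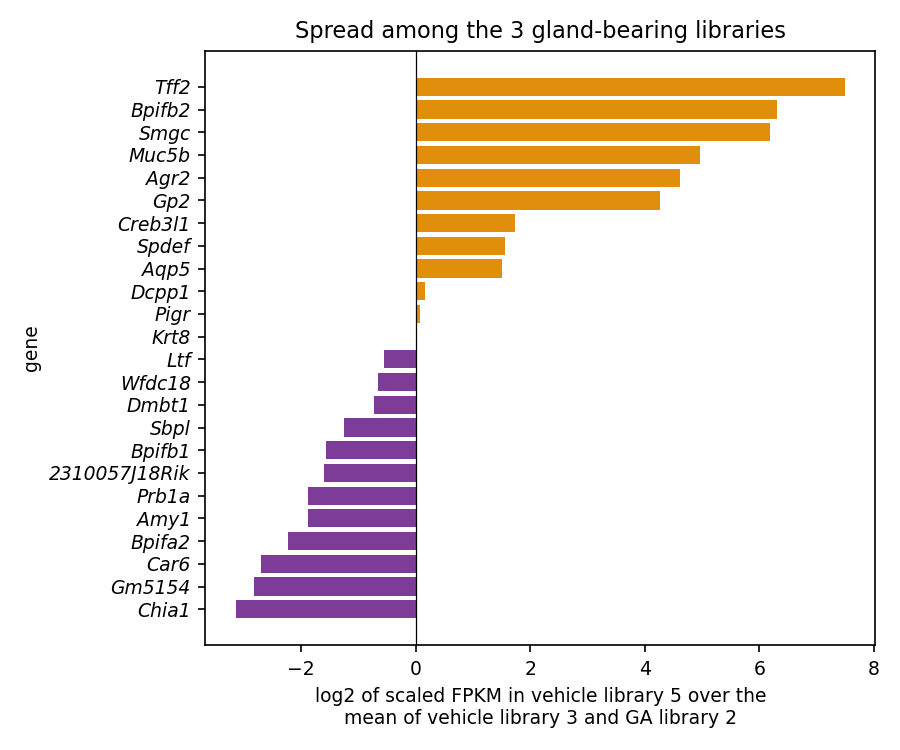
Log2 of scaled FPKM in vehicle library 5 over the mean of vehicle library 3 and GA library 2 for 24 genes, 1 bar a gene and no replicates. Tff2 (7.50), Bpifb2 (6.31) and Smgc (6.19) stand at the top, Dcpp1 (0.16) and Pigr (0.08) near 0, and Chia1 (-3.14) at the bottom.

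Some of the genes apart lay next to each other. On chromosome 17, all 5 tested genes between 23880876 and 23955274, a span of 74.4 kb, were higher: Dcpp1, Dcpp2, Dcpp3, Sbp and Sbpl. They did not share a pattern within the gland-bearing libraries, since Sbp and Sbpl were lowest in vehicle library 5 and Dcpp2 and Dcpp3 highest there. Dcpp2 stood at 5.73, 29.8 and 4.25 scaled FPKM and Sbp at 19.4, 9.33 and 29.3. On chromosome 2, 5 of 8 tested genes between 153875045 and 154220369 were higher, Bpifb2, Bpifa2 and Bpifb1 among them, and here too Bpifb2 led in vehicle library 5 and the other two in the remaining libraries. A further span on chromosome 5, from 43515538 to 44102032, held 3 higher genes among 8 tested (C1qtnf7, Cd38 and Prom1). These 3 spans were picked for holding at least 3 higher genes of mean level 1 FPKM or more and no gap over 250 kb. Low genes could pass the level filter only through the gland-bearing libraries. The counts therefore describe the spans and support nothing further.

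Regulators of secretory cells were among the genes apart. Of 20 tested factors on the list of exocrine transcription factors, 7 were higher and 1 lower, and the median difference was 0.71. Bhlha15 (MIST1), which drives the acinar secretory form, stood at 6.82, 3.73 and 7.24 scaled FPKM against 0.0267 to 0.645 (difference 4.73, SE 0.54). Sox10, a factor of gland acini and of Schwann cells, stood at 3.8, 2.92 and 5.33 against 0.142 to 1.74. The nerve and Schwann cell list had no gene apart (15 tested), and its score overlapped, at 0.75 to 1.33 against -0.19 to 1.38. Which cells the Sox10 reads came from was not tested. Etv1 stood at 2.06, 2.36 and 1.88 against 0.161 to 0.401, and Foxa2 at 1.22, 1.92 and 2.22 against 0 to 1.15.

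Creb3l1 and Creb3l4, membrane-bound activators of secretory capacity, were also higher, at 7.74, 27.6 and 8.85 against 2.4 to 5.7 and at 2.03, 8.13 and 3.97 against 0.251 to 1.56. Both were highest in vehicle library 5. Xbp1, the activator of the unfolded protein response, was 58.1, 65.9 and 85.6 scaled FPKM against 28.1 to 56.4, so the groups did not overlap but the difference of 0.82 (SE 0.23) was under the limit. Barx2, a homeobox factor of the tongue epithelium and muscle, was the factor that was lower, at 44.7, 47.5 and 45.6 against 57.5 to 115 (difference -1.01, SE 0.19).

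General secretory machinery was apart at a share near that of all genes, so nothing is read from its count. Of 42 tested genes for endoplasmic reticulum function and protein export, 2 were higher (4.76%, beside 2.56% of all named genes). The median difference was 0.28, with 39 of the 42 differences above 0. The 2 were Derl3, a factor of protein retrotranslocation, at 1.68, 1.06 and 2.95 scaled FPKM against 0.0491 to 0.608, and Tmed3, a cargo receptor, at 17.2, 27.6 and 23.8 against 9.64 to 12.9. The chaperone Hspa5 was at 61.3, 92.9 and 182 against 62.6 to 171, so vehicle library 3 was below every gland-free library and GA library 2 above every one. Of 15 genes of regulated exocytosis none was apart, and their median difference was 0.08.

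Some channels and transporters of fluid secretion were apart, while others overlapped. Of 33 tested genes, 9 were higher (27.3%, beside 2.56% of all named genes) and none lower, and the median difference was 0.23. As in the serous list, low genes could pass the level filter through the gland-bearing libraries alone, so this count only describes the list. Aqp5, the apical water channel of acini, stood at 8.22, 29 and 12.1 scaled FPKM against 0 to 0.614 (difference 5.40, SE 0.56). The paracellular claudins Cldn10 and Cldn3 stood at 10.2, 12.9 and 10.6 against 0.0745 to 1.53 and at 7.27, 14.4 and 13.7 against 0 to 0.352. The calcium-activated potassium channel Kcnn4 stood at 3.32, 4.46 and 4.81 against 0.135 to 0.975.

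Of 4 listed receptors through which nerves drive secretion, Chrm3 and Adrb1 were apart at low levels. Chrm3, the muscarinic receptor of acini, was at 0.977, 0.731 and 0.573 scaled FPKM against 0.0123 to 0.171, and the adrenergic receptor Adrb1 at 0.464, 0.545 and 0.448 against 0 to 0.216. Vipr1, a receptor for a secretory neuropeptide, overlapped at 0.853, 1.11 and 0.61 against 0.409 to 0.904, and the muscarinic receptor Chrm1 was under the level filter, at 0.109, 0.698 and 0.0333 against 0.00592 to 0.0675. The bicarbonate cotransporter Slc4a4, the carbonic anhydrase Car2 and the potassium channel Kcnq1 made up the rest of the 9. The sodium-potassium-chloride cotransporter Slc12a2 and the chloride channel Ano1, both central to salivary flow, overlapped, at 14.5, 16.4 and 13.8 against 6.32 to 15 and at 5.37, 7.71 and 5.43 against 2.79 to 21.2.

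Simple epithelial keratins were nearly silent without gland. Krt8 was at 21, 32.2 and 42.2 scaled FPKM against 0.0791 to 1.17, and its partner Krt18 at 34, 43.6 and 45.8 against 0.652 to 2.17. Of 10 tested genes of simple epithelium, 6 were higher (Krt7, Krt8, Krt18, Krt19, Cldn7 and Prom1) and the median difference was 2.99. The myoepithelial list had 1 of 9 genes higher, the smooth muscle protein Cnn1, at 2.89, 4.69 and 3.42 against 0.0594 to 0.91, while Acta2 and Krt14, which vessels and basal keratinocytes also carry, overlapped.

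IgA transport was apart more than IgA itself. Pigr, the receptor that carries IgA across gland epithelium, stood at 31.7, 37.7 and 39.7 scaled FPKM against 0 to 0.239 (a ratio of 624 between the group means). Igha, the IgA heavy chain, stood at 2.72, 5.13 and 3.58 against 0.44 to 2.62 (difference 1.47, SE 0.51). These were the 2 of 12 tested genes apart, with Jchain at 0.323, 0.912 and 0.759 against 0.0345 to 1.06, and the list median was 0.52. Of 3 tested genes of the B cell follicle none was apart.

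Taste bud genes gave 1 of 15 tested apart and higher (6.67%, beside 2.56% of all named genes). It was Pkd1l3, a sour taste channel partner, at 1.57, 1.17 and 1.98 scaled FPKM against 0.115 to 0.368. Gnat3, the taste G protein, was at 0.413, 0.566 and 1.35 against 0 to 0.827, and Calhm1 was listed at 0 in the gland-bearing libraries. Trpm5, the taste cation channel, was at 0.147 to 0.181 against 0.00645 to 0.101, with no overlap, but its mean was under the level filter and it was not counted. The list median was 0.59, and 14 of the 15 differences were above 0.

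Among the 20 largest higher genes outside the lists, the remaining ones ranged from 4.83 to 7.14 log2 units. Pax1, a paired-box factor, stood at 12.2, 6.55 and 15.1 scaled FPKM against 0 to 0.0428. Msln, a surface glycoprotein of mesothelium, stood at 21.1, 12 and 31.1 against 0 to 0.352, and B4galnt2, a glycan-adding enzyme, at 15.4, 17.1 and 13.6 against 0.0316 to 0.19. Lrrc26, an accessory subunit of the large-conductance potassium channel, stood at 13.6, 25.3 and 15.6 against 0 to 0.787. Cxcl17, Tmc5, Slc44a4, Cldn2 and Wfdc15b completed the group, each with a gland-free maximum below 0.4 scaled FPKM.

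Other tissues moved with gland state. Of 10 tested adipocyte genes, 6 were higher (Adipoq, Plin1, Cidec, Cfd, Car3 and Retn), with a median difference of 2.56. Adipoq, the fat-cell hormone, was at 7.1, 0.361 and 1.96 scaled FPKM against 0 to 0.136, and Cfd (adipsin) at 37.2, 2.03 and 16.1 against 0 to 1.49. The adipocyte score was 3.30 in vehicle library 3, 0.38 in vehicle library 5 and 2.21 in GA library 2, against -1.19 to -0.02, an order opposite to the mucous score for the vehicle libraries.

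Skeletal muscle gave 4 of 19 tested genes higher (21.1%, beside 2.56% of all named genes) and none lower, with a median difference of 0.83. Myh1, the fast 2X myosin, was at 1024, 206 and 794 scaled FPKM against 64.3 to 153, and Myh2, the fast 2A myosin, at 13.8, 3.57 and 9.67 against 0.242 to 2.17. Myh4, the fastest myosin, was at 704, 173 and 365 against 176 to 1228. The other 2 were Actn3, at 21, 35 and 29.2 against 0.933 to 9.81, and Pvalb, at 62.4 to 121 against 4.41 to 45.9. The muscle score itself overlapped, at 6.70 to 8.45 against 5.24 to 7.58. With the muscle score as a covariate, 348 genes were higher and 46 lower, and 344 and 41 of these were among the 431 and the 49.

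Neutrophil and matrix genes were uneven among the gland-bearing libraries. The neutrophil score was 0.67, 4.51 and 2.82 in vehicle library 3, vehicle library 5 and GA library 2, against -0.66 to 3.55. The highest gland-free score was that of vehicle library 4, and the next was 0.66 (vehicle library 2). None of 13 tested neutrophil genes was apart, although all 13 differences were above 0 and their median was 2.44. Csf3r, the receptor for neutrophil growth factor, was at 0.715, 16 and 4.38 scaled FPKM against 0.03 to 8.02. None of 14 fibroblast and matrix genes was apart either, although all 14 differences were above 0 and their median was 1.14. The part of adipose, muscle and neutrophil content in the gland-state differences was not tested.

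**Figure D4:**
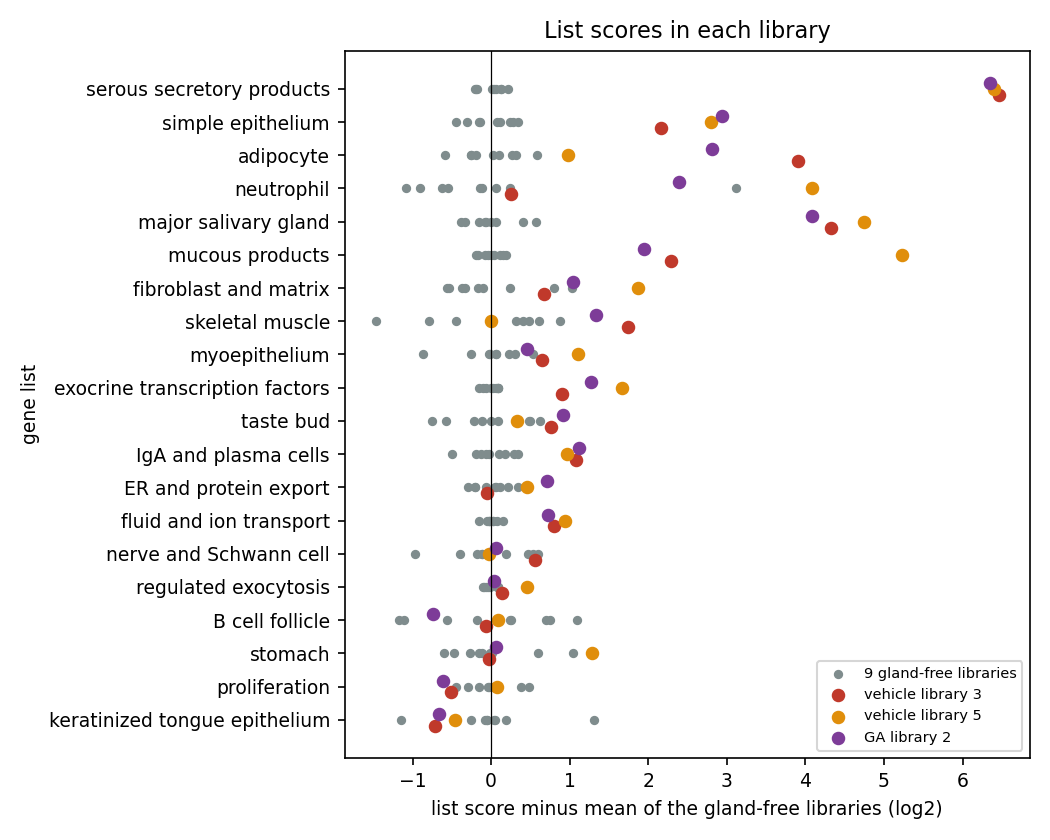
Score of each gene list (mean log2 level of its tested genes, Lipf left out) in each library, minus the mean of the 9 gland-free libraries. The serous scores of the 3 gland-bearing libraries sit together, the mucous score of vehicle library 5 stands at 3.72 before centring against 0.44 and 0.78, and the keratinized epithelium scores lie inside the grey range.

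Fewer genes were called lower than higher, but genes near 0 without gland could pass the level filter through the gland-bearing libraries alone. Nothing is read from that imbalance. Of the 49 genes lower in the gland-bearing libraries, 5 differed by at least 2 log2 units. The 2 largest were Krtap4-16 and Krtap4-2, hard keratin-associated proteins, listed at 0 in all 3 gland-bearing libraries and at 0.123 to 21.6 (median 10.1) and 0.0805 to 10.3 (median 3.51) scaled FPKM in the gland-free ones. Scgb1a1, a secretoglobin, was at 0, 0.392 and 0 against 0.425 to 11.2, where the nearest values differed little. Cd109, a surface protein of basal keratinocytes, was at 7.36, 9.73 and 4.98 against 13.6 to 23.3. The claudins Cldn17 and Cldn23, Calm5, Insl6 and Vwa2 were also among the 10 largest, between -1.27 and -1.98.

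Keratinized tongue epithelium gave 1 of 26 tested genes lower (3.85%, beside 0.291% of all named genes) and none higher. The lower gene was the cornified envelope protein Sprr3, at 221, 252 and 183 scaled FPKM against 262 to 792 (difference -1.21, SE 0.29). The list median was -0.52, and 20 of the 26 differences were below 0. Krt4, a keratin of the soft mucosa, was at 2738, 1939 and 963 against 2457 to 9113, and Krt36, a hard keratin of filiform papillae, at 89.3, 72.8 and 146 against 34.2 to 1227. Of 14 proliferation genes none was apart, with a median of -0.45 and Mki67 at 13.1, 16.7 and 9.64 against 13.2 to 25.8.

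The labelled comparison, GA minus vehicle, was then read with and without the gland-bearing libraries. Over all 12 libraries, limma with Benjamini-Hochberg adjustment called 0 of 16852 genes (0%) at an adjusted p below 0.1 and an absolute log2 difference of at least 0.58. The unadjusted p was below 0.05 for 364 genes, and limma-voom on recovered reads called 0 with 330 at that unadjusted limit. With the 9 gland-free libraries, limma called 0 of 16679 genes (0%), with 472 at an unadjusted p below 0.05, and limma-voom called 0 with 406. With gland state as a covariate in 12 libraries, limma called 0, with 548 at the unadjusted limit. None of these fits had a term for Y-linked reads, which were uneven over the treatments. The paper reports significant genes at these limits with a count model that was not run here.

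The serous genes had very wide intervals over 12 libraries. Sbpl differed between GA and vehicle by -1.95 log2 units (95% interval -10.24 to 6.33, limma adjusted p = 0.9999), Bpifb1 by -2.17 (-9.63 to 5.28), Amy1 by -1.09 (-6.20 to 4.03) and Muc5b by -1.95 (-6.71 to 2.80). In the 9 gland-free libraries Bpifb1 differed by 0.04 (-0.80 to 0.88), Amy1 by 0.36 (-0.54 to 1.27) and Ltf by 0.15 (-0.93 to 1.24), and Sbpl and Muc5b fell under the level filter. Bpifa2 differed by 1.12 (0.08 to 2.15, limma adjusted p = 0.980) there. The gland-free levels of Bpifb1, Ltf and Bpifa2 were of the order of the 0.1 added before the log2. That addition narrows their intervals, so nothing is read from them.

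Of the 431 genes apart and higher, 321 were tested in both fits. Their median GA minus vehicle difference was -0.18 over 12 libraries, with 242 below 0, and 0.10 over the 9, with 121 below 0. Over all genes the medians were 0.00 and -0.01, with 8269 of 16852 and 8537 of 16679 below 0. The fits share 9 libraries, and 2 of the 3 gland-bearing libraries are vehicle libraries, so gland state and treatment are unbalanced in the 12. The genes were picked for being higher in these 3 libraries. Differences below 0 over the 12 thus follow from the choice, and nothing is read from their change over the 9. The median standard error of these genes was 0.49 over 12 libraries and 0.37 over the 9.

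**Figure D5:**
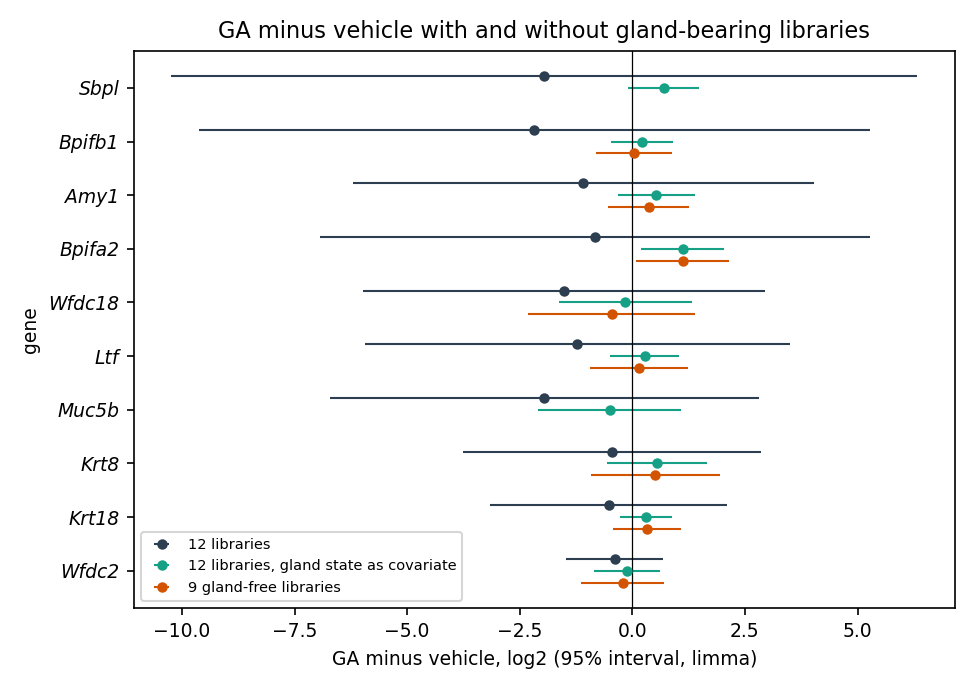
GA minus vehicle difference (log2) of 10 gland genes with its 95% interval from limma, over 12 libraries, over 12 with gland state as covariate, and over the 9 gland-free libraries (no point for Sbpl and Muc5b, which were under the level filter). The interval of Bpifb1 runs from -9.63 to 5.28 over 12 libraries and from -0.80 to 0.88 over the 9.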

How the data were processed

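RNA of 12 tongue libraries was sequenced. The authors used HISAT2 for alignment (mm10), took gene counts of uniquely mapped reads from featureCounts, and deposited FPKM values. The strand setting is not given in the sources used here. Each file held 55463 rows, of which the 22965 without a gene name were left out. Low values were whole multiples of 1 read (97.7% to 98.3% of values worth up to 8 reads, within 0.02), so totals were recovered with GENCODE M21 exon lengths for the 29222 rows matched. Exon coordinates are GRCm38.

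Libraries were put on a common scale with trimmed means of their log ratios (trimming 30% of ratios and 5% of levels), and log2(scaled FPKM + 0.1) was compared where a gene averaged 0.1 FPKM or more. Differences on this scale understate the change of low genes. Gland-state differences are lmFit coefficients with treatment as covariate, without a test. GA minus vehicle was tested with limma (version 3.58.1, R 4.3.3) on the log2 scale, since FPKM values were deposited. The limits were those of the study, an adjusted p below 0.1 and a log2 difference of at least 0.58. The study's count model (edgeR) was not run on the recovered reads. Why its outcome differs from the 0 genes called here was not tested. The fits were run on simulated libraries with independent noise in each gene and known changes in genes of higher level only. Such data hold no shared tissue content, so nothing about the results above is read from them. The libraries, gene lists and named genes were chosen with earlier results of these data known. Named genes are those of the lists, the 20 largest higher and 10 largest lower genes apart with a mean of at least 1 FPKM and, for GA, the most abundant serous genes. A few genes that met these rules are not reported here. The closing section gives the alternatives: pseudocount, filter, scaling, covariates, single treatments, replicate block and single libraries left out. The precision of a value is set by 18040309 to 25192670 reads per library.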

Additional observations from a re-analysis of the deposited data

Results flagged for a closer look

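Of 24 sets of values tested over the 9 gland-free libraries with Dixon's criterion (20 list scores and the levels of Sbpl, Amy1, Ltf and Muc5b), 1 held a sample far from the others, where chance flags about 1 in 20. Vehicle library 4 had a neutrophil score of 3.55, while the other 8 lay between -0.66 and 0.66, and the gap was 0.686 of the whole range, above the critical value at 95%.

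Rows without a gene name enter no comparison. Of 3664 such rows with a mean of at least 0.1 FPKM, 24 were apart and higher in the gland-bearing libraries (0.655%) and 14 were lower (0.382%), beside 2.56% and 0.291% of the named genes. Unnamed rows took 17.9% to 25.5% of the FPKM sum in the gland-bearing libraries and 16.2% to 23.1% in the gland-free ones.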

How the results depend on the processing

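No alternative turned the direction of any of the 93 genes recomputed singly, and none of the 431 higher or 49 lower genes changed sign where tested under 25 alternatives. The 431 and 49 genes were picked in these same libraries for non-overlap, so their signs could hardly change and nothing is read from this. Medians of some lists did change sign: fluid transport with a mean of at least 1 FPKM (-0.03), skeletal muscle with the muscle score as covariate (-0.47, where the covariate is made from the same genes), regulated exocytosis and IgA with GA libraries alone (-0.02 and -0.06), nerve under 4 settings (lowest -0.37), and B cell follicle and stomach, near 0, under several settings (up to 0.61 and 1.37). The counts depended on the limits. A pseudocount of 1 gave 202 genes higher and 17 lower, a mean of at least 1 FPKM gave 216 and 28, and a difference of at least 2 gave 196 and 5. Vehicle libraries alone gave 869 and 215 and GA libraries alone, with 1 gland-bearing library, 1134 and 352, where fewer libraries make non-overlap easier. Leaving out single libraries gave 429 to 677 higher (671 without vehicle library 3, 677 without vehicle library 5) and 46 to 140 lower (77 and 112 without those, 74 without GA library 2, 140 without GA library 6). Among list genes, 61 were higher and 2 lower. The 61 became 105 with GA libraries alone, and 61 to 74 without single libraries. The 2 became 1 with a pseudocount of 1 or median-ratio scaling, 0 at a difference of at least 2, 9 with vehicle and 7 with GA libraries alone, and 1 to 10 without single libraries (10 without GA library 6).

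GA minus vehicle gave 0 genes under every other setting. Without single libraries it gave 0 to 1 over 12 libraries (Gm25290, with 0 to 5 reads per library, without vehicle library 4) and 0 to 2 over the 9 (Gm24233 without vehicle library 2, Gm25290 without vehicle library 4, Gm25517 without GA library 3, Snord138 and Mir8103 without GA library 4, Gm24989 without GA library 5), each named after its values were seen and, where reads were recovered, with at most 5 reads per library. Same-numbered vehicle and GA libraries were not paired (correlations of their deviations -0.37 to 0.08), and with the replicate block there were 390 genes higher and 57 lower and 0 called for GA in both fits. Depth limits genes listed at 0, which may lie under the floor of 3 reads.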
